A study of Mus musculus with 6 samples.

Results

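Matricellular proteins are secreted into the matrix around cells, where they act less as scaffold than as adjustable signals for adhesion and growth factor supply. Of 24980 gene symbols in the table, 10 were chosen by name: the matricellular genes Tnc, Thbs1, Thbs2, Thbs4, Sparc and Postn, the fibronectin gene Fn1, and the small leucine-rich proteoglycan genes Bgn, Dcn and Lum. All 10 were listed. In muscle, satellite cells, the stem cells under the basement membrane of the fibre, meet these proteins in their niche. Fibronectin and tenascin C are known as niche components that appear transiently around satellite cells during regeneration. The small proteoglycans bind collagen fibrils and, in the case of decorin and biglycan, growth factors of the TGF-beta family, while thrombospondins bind integrins, CD47 and, for thrombospondin 1, latent TGF-beta.

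The libraries came from satellite cells isolated by flow cytometry from hindlimb muscles of adult C57BL6/J mice, 3 labelled scERα WT and 3 labelled scERα KO. The mice received 10 mg tamoxifen in total to induce Cre, so tamoxifen, itself a ligand of estrogen receptors, was shared by both groups. The sources used here do not give the promoter that drives Cre, whether WT mice carried Cre, the surface markers of the sort or whether each library was 1 mouse. Each p-value therefore rests on library-to-library spread, some of which may be technical. The question of the design is how transcripts of satellite cells differ when the gene of estrogen receptor α, Esr1, is targeted in them.

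Values are TPM, a transcript level scaled for transcript length, so genes can be compared with each other within a library. Read depth cannot be recovered from TPM, and no counting interval is given. The listed genes held 29.5% to 33.4% of the TPM scale per library. Esr1 lay between 6.94 and 7.53 TPM in WT and between 2.92 and 3.87 TPM in KO (limma log2 difference -0.86, SE 0.13, adjusted p = 0.0925; exact two-sided permutation p = 0.1, the smallest that 3 against 3 libraries can give). Its groups did not overlap, and each library lay on the side its label names. All 12 satellite cell markers passed the filter, with Pax7 between 17.9 and 32.8 TPM. The defining marker of fibro-adipogenic progenitors (FAPs), Pdgfra, lay between 0.10 and 0.31 TPM, the leukocyte marker Ptprc between 0.03 and 0.29 TPM and the Schwann cell factor Sox10 between 0.06 and 0.42 TPM. The endothelial marker Pecam1 lay between 1.74 and 5.07 TPM. In such bulk RNA, more cells of a type and more RNA per cell cannot be told apart.

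The test was limma on log2(TPM + 1) over 8971 genes with at least 1 TPM in at least 3 libraries, with Benjamini-Hochberg adjustment over all of them. Among the 10 genes, 8 passed the filter. Postn and Lum did not, and are given as values with the exact permutation test. Tnc passed through its 3 KO libraries and 1 WT library, so the filter itself favoured a difference in that gene. By limma, 0 of the 10 had an adjusted p under 0.05 in either direction, where 0.0557% of all genes tested did (0.0334% higher and 0.0223% lower in KO). An unadjusted limma p under 0.05 was found for 3 of the 10, Tnc, Fn1 and Bgn, all higher in KO, where 7.89% of all genes tested had one in that direction. None of the 10 had one with a lower value, against 2.66% of all genes tested. In 4 of the 10, Tnc, Postn, Fn1 and Bgn, every KO library lay above every WT library. Over all genes tested that share was 13.5%, and over the 20506 symbols with any value above 0 it was 9.13%. In 0 of the 10 did all KO libraries lie below WT, against 3.07% of all genes tested. The 10 genes were chosen with earlier results of these data known, so these counts describe them and cannot serve as a test.

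**Figure D1:**
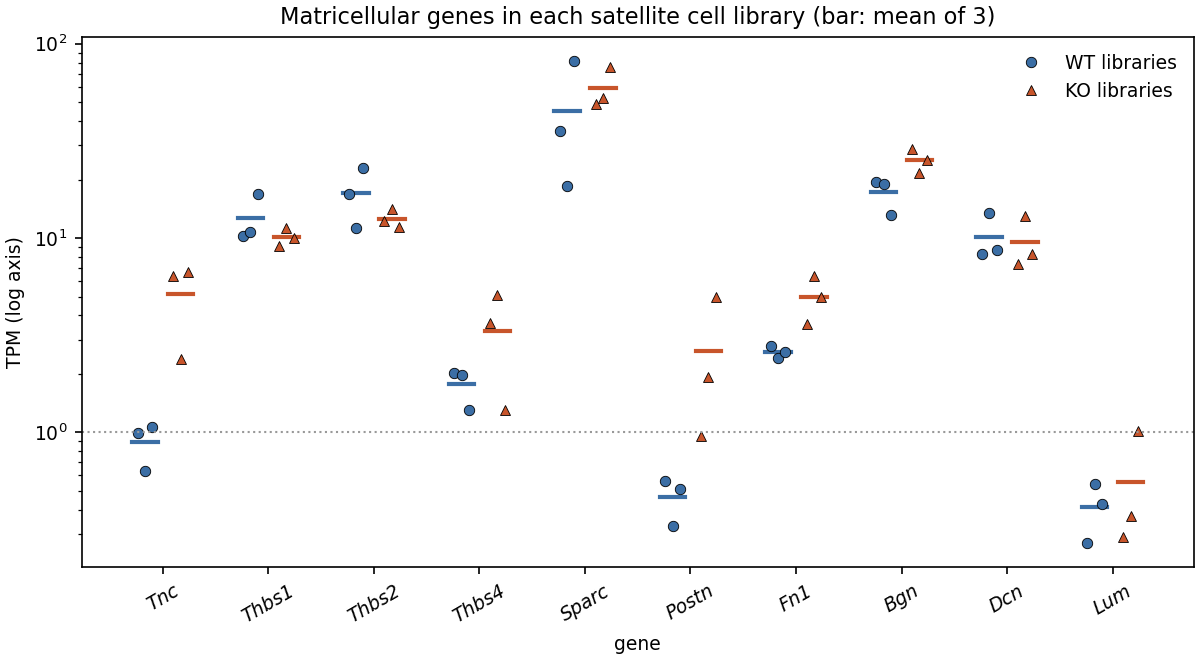
TPM (log axis) of each gene in each library, WT as blue circles and KO as orange triangles, with bars at the mean of 3; the dotted line marks 1 TPM. Tnc, Postn, Fn1 and Bgn have all KO points above all WT points, and Sparc spans the widest range within WT, from 18.58 to 81.58 TPM.

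The stretches before the start sites of Tnc, Postn and Bgn are shown because these are genes whose groups did not overlap and because the targeted gene encodes a transcription factor that binds a known DNA element. RefSeq (GRCm38.p6) gave such a stretch for 6 of the 10 genes, in 8 windows; Thbs1, Fn1, Dcn and Lum had none. Each window holds the 250 bases before an annotated start, written 5′ to 3′ on the strand of the gene. Capitals mark matches to the TATA box letters (TATAAA) and the GC box letters (GGGCGG) on either strand, wherever they lie in the window. The windows are chr4:64047016-64047265 (minus strand), chr3:54360857-54361106 (plus strand) and chrX:73483351-73483600 (plus strand).
Tnc: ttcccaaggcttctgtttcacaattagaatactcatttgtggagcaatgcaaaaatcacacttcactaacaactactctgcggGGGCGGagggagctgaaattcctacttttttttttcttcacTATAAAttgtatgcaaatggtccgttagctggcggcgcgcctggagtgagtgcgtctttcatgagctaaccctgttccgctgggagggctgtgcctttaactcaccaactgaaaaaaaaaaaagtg
Postn: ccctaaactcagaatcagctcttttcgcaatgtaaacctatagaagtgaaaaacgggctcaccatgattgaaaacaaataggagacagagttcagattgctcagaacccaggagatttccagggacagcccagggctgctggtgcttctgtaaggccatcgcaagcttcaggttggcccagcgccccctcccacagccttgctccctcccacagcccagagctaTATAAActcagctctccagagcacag
Bgn: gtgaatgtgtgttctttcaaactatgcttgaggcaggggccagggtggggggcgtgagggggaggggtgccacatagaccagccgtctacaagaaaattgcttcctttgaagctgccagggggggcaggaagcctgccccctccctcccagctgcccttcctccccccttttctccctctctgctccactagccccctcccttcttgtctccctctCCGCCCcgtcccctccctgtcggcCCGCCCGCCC
The Tnc stretch held 1 match to the GC box letters and 1 to the TATA letters, as did the other Tnc window, which is not shown. The Postn stretch held 1 match to the TATA letters, and the Bgn stretch 3 to the GC box letters, of which 2 overlap. Of 32851 windows of the same length before mouse start sites, 12.4% held the TATA letters and 32.7% the GC box letters. The full estrogen response element, an inverted repeat of GGTCA with a spacer of 3 bases, was in 0 of the 8 windows and in 0.0639% of all windows. The letters GGTCA, on either strand and counted also inside the full element, were in 1 of the 2 Postn windows, the one not shown, and in the Sparc window, against 35.2% of all windows. The AP-1 letters TGANTCA were in 0 of the 8 and in 6.75% of all windows. These matches describe letters in these windows only.

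Tenascin C, a large hexameric glycoprotein that loosens cell adhesion to fibronectin, had the largest difference of the 10. Tnc (ENSMUSG00000028364, chromosome 4, 63959785 to 64047015, minus strand, GENCODE vM21 on GRCm38) held 0.99, 0.63 and 1.06 TPM in WT libraries 1, 2 and 3. In KO libraries 1, 2 and 3 it held 6.38, 2.38 and 6.72 TPM. Every KO library was above every WT library, and KO library 2 lay well under the other KO libraries. The means were 0.893 ± 0.231 and 5.16 ± 2.41 TPM (SD, n = 3 each), a ratio of 5.78. The log2 difference was 1.62 (SE 0.30, 95% interval 0.93 to 2.30), and the gene ranked 35 of 8971 by limma p, with an adjusted p = 0.137 and an exact permutation p = 0.1. Without KO library 2 the difference was 2.003 and passed, at a limma adjusted p = 0.0161. It also passed with estimated library weights (adjusted p = 0.0413) and after rescaling each library to the same protein-coding sum (adjusted p = 0.0414). It did not pass in the other alternatives that tested it, with an adjusted p = 0.383 and a difference of 1.41 without KO library 3, and an adjusted p = 0.366 with no filter. The difference was 2.30 with a pseudocount of 0.1 and 0.76 with one of 5.

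The Schwann cell markers summed to 15.4, 16.1 and 20.7 TPM in WT libraries 1, 2 and 3 and to 20.8, 31.6 and 42.6 TPM in KO, so that this sum, as Tnc, was above WT in every KO library. Its lowest KO library was library 1, where Tnc was 6.38 TPM. Pmp22 alone held 8.3, 9.36 and 11.7 TPM of this sum in WT and 12.6, 16.4 and 21.5 TPM in KO. Of the 8 markers 7 had a higher and 1, Ngfr, a lower value in KO. The part of such cells in the Tnc values was not tested. Over the 6 libraries, the protein-coding genes most like Tnc on log2(TPM + 1) were Apbb2 (Pearson r = 0.995), Smc3, a cohesin subunit (r = 0.989), and Psmc2, a proteasome ATPase (r = 0.986). Of all genes tested 27 had r above 0.95. These points share the same 6 libraries and the same total, and the differences themselves were smaller: Apbb2 went from a mean of 1.49 in WT to 1.79 TPM in KO, a log2 difference of 0.16, and Smc3 from 8.47 to 10.2 TPM.

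Fibronectin, a dimeric adhesion protein that integrins assemble into fibrils and that tenascin C binds, was the second of the genes above the filter by p. Fn1 (chromosome 1, 71585520 to 71653200, minus strand) held 2.78, 2.41 and 2.59 TPM in WT and 3.60, 6.36 and 4.95 TPM in KO. The WT libraries were close together, with a coefficient of variation of 7.13%, and the KO libraries all lay above them with more spread. The log2 difference was 0.71 (SE 0.18, 95% interval 0.30 to 1.11; limma adjusted p = 0.209; exact permutation p = 0.1), a ratio of means of 1.92 and rank 150 of 8971. The KO library with the most Fn1, library 2, was the one with the least Tnc. The endothelial, mural and muscle fibre markers ordered the KO libraries as Fn1 did, with sums of 11.7, 23.6 and 18.1 TPM, of 18.6, 35.8 and 32.9 TPM and of 7.09, 39.7 and 35.1 TPM in libraries 1, 2 and 3. In WT they summed to between 11.9 and 17.8, between 20.6 and 24.5 and between 10.6 and 26.4 TPM, and their part in the Fn1 values was not tested.

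Periostin, a matricellular protein of fibroblasts and injured tissue, was near the floor in WT. Postn (chromosome 3, 54361109 to 54391037, plus strand) stood at 0.56, 0.33 and 0.51 TPM in WT and 0.96, 1.93 and 4.96 TPM in KO. All KO libraries were above all WT libraries, with KO library 3 far above the other KO libraries. The ratio of means was 5.61 and the log2 difference 1.15, or 0.71 without KO library 3 (exact two-sided permutation p = 0.1). With no filter, limma gave it an adjusted p = 0.552. The Schwann cell markers, 8 genes of which 5 passed the filter, ordered the KO libraries as Postn did, at 20.8, 31.6 and 42.6 TPM. In WT they summed to between 15.4 and 20.7 TPM. The FAP markers, at 163, 177 and 192 TPM, and the leukocyte markers, at 4.33, 5.85 and 7.49 TPM, gave the same order in KO. None of these sums ordered the WT libraries as Postn did. The FAP markers were highest in WT library 3, at 233 TPM, where Postn was 0.51 TPM. The part of such cells in the Postn values was not tested.

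**Figure D2:**
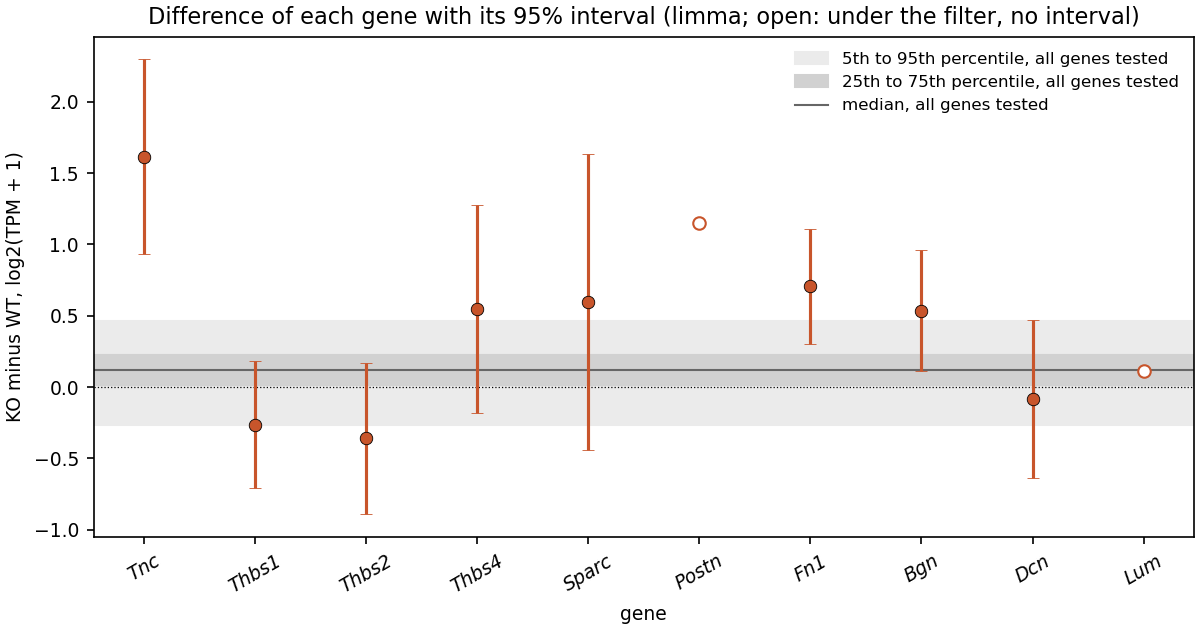
KO minus WT difference of each gene on log2(TPM + 1), with its 95% interval from limma; open circles are genes under the filter, and grey bands show all genes tested (5th to 95th percentile, -0.26 to 0.46). Tnc, Fn1 and Bgn have intervals above 0, and the Bgn interval (0.11 to 0.96) reaches down to the median of all genes tested, 0.12.

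Thrombospondins are calcium-binding glycoproteins. Thrombospondins 1 and 2 form trimers that bind CD47 and inhibit angiogenesis, whereas thrombospondin 4 forms pentamers and is known from tendon and muscle attachment. Thbs1 (chromosome 2, 118111876 to 118127133, plus strand) stood at 10.3, 10.8 and 16.9 TPM in WT and 9.13, 11.3 and 10.0 TPM in KO. Thbs2 (chromosome 17, 14665500 to 14694235, minus strand) held 16.9, 11.3 and 23.0 TPM in WT and 12.3, 14.1 and 11.4 TPM in KO. Both overlapped between groups, both were highest in WT library 3, and Thbs2 was above Thbs1 in 6 of 6 libraries. The log2 difference of Thbs1 was -0.26 (95% interval -0.71 to 0.18; limma adjusted p = 0.644) and -0.05 without WT library 3. For Thbs2 it was -0.36 (95% interval -0.89 to 0.17; limma adjusted p = 0.610) and -0.13 without that library. Without WT library 2 the Thbs2 difference was -0.61 and every KO library lay below the WT libraries left. Under median-of-ratios scaling, the KO values of Thbs1 all lay below the WT values, with a log2 difference of -0.40 (limma adjusted p = 0.704).

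Thbs4 (chromosome 13, 92751590 to 92794818, minus strand) had a higher mean in KO. It held 2.02, 1.97 and 1.31 TPM in WT and 3.65, 5.06 and 1.31 TPM in KO. KO libraries 1 and 2 were above all WT libraries, and KO library 3 equalled the lowest WT library. The log2 difference was 0.55 (95% interval -0.18 to 1.28; limma adjusted p = 0.582), 0.95 without KO library 3 and 0.25 without KO library 2. Tenocyte markers followed a like order: the 6 genes summed to 2.76, 3.05 and 2.34 TPM in WT and 3.87, 5.76 and 1.77 TPM in KO. Of these 6 only Fmod passed the filter, and the tenocyte factor Scx lay between 0.68 and 2.15 TPM. Their part in the Thbs4 values was not tested.

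Sparc, the gene of osteonectin, a collagen-binding chaperone of matrix assembly, was the most abundant of the 10 by its mean, 52.1 TPM over 6 libraries. Sparc (chromosome 11, 55394500 to 55423183, minus strand) held 35.5, 18.6 and 81.6 TPM in WT and 48.8, 52.7 and 75.7 TPM in KO. WT libraries 2 and 3 were the lowest and the highest of all 6, so the groups overlapped over the whole KO range. The log2 difference was 0.60 (SE 0.45, 95% interval -0.44 to 1.64; limma adjusted p = 0.654), and it rested on single WT libraries: 0.10 without WT library 2 and 1.14 without WT library 3. The 12 FAP markers, of which 7 passed the filter, summed to 148, 123 and 233 TPM in WT and 163, 177 and 192 TPM in KO, the same order of the 6 libraries as Sparc. The collagen chain Col3a1, one of them, was at 40.9, 21.8 and 117 TPM in WT and 48.4, 45.0 and 71.3 TPM in KO. Together with Gsn and Dpt it made up most of the sum in every library, while Pdgfra was at most 0.31 TPM. The part of FAPs in the Sparc values was not tested. Sparc made up between 23.5% and 54.7% of the summed TPM of the 10 genes.

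**Figure D3:**
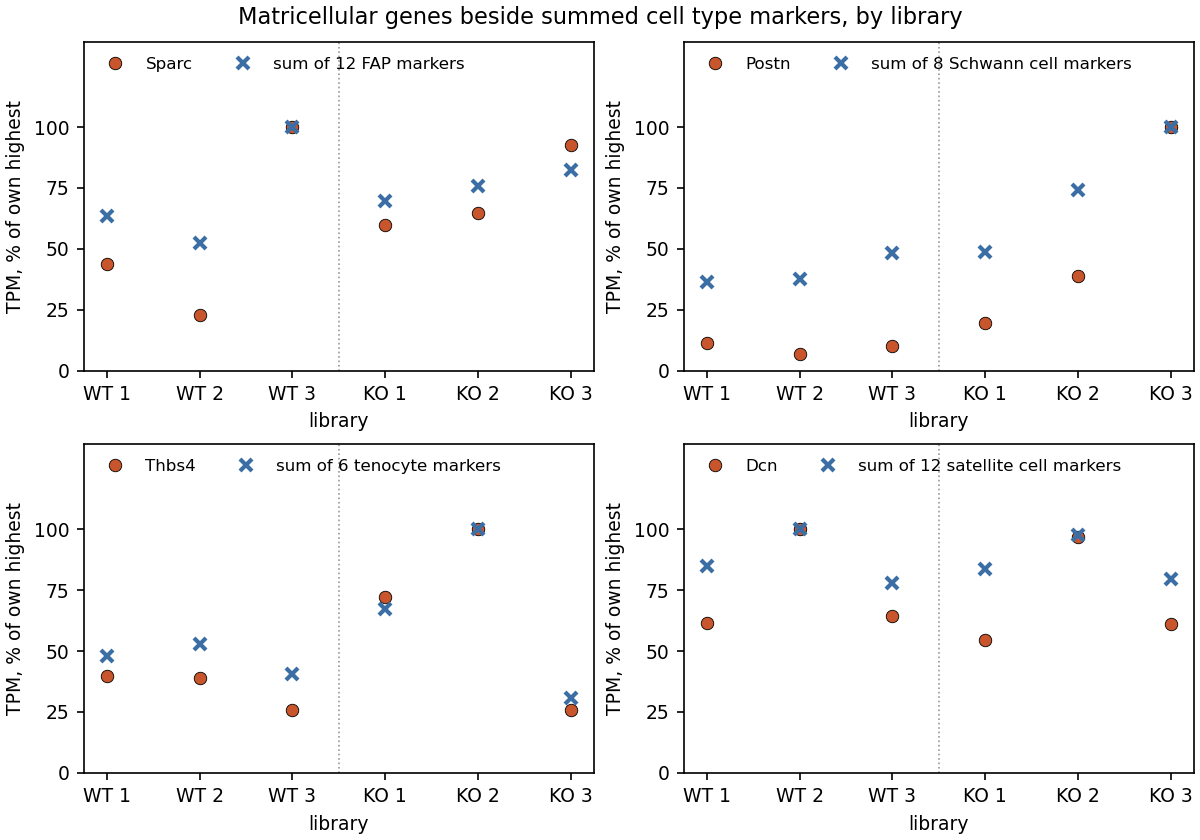
Sparc, Postn, Thbs4 and Dcn (orange circles) and the summed TPM of a marker list (blue crosses), each as a percentage of its own highest library, for WT and KO libraries 1 to 3. Sparc and the FAP markers are both lowest in WT library 2 and highest in WT library 3; Thbs4 and the tenocyte markers are both highest in KO library 2 and low in KO library 3.

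Biglycan and decorin are near relatives that carry chondroitin or dermatan sulfate chains, and lumican carries keratan sulfate. Bgn (chromosome X, 73483602 to 73495933, plus strand) stood at 19.3, 19.0 and 13.2 TPM in WT and 28.7, 21.5 and 25.2 TPM in KO. All KO libraries were above all WT libraries, by a narrow gap between KO library 2 and WT library 1. The log2 difference was 0.54 (SE 0.19, 95% interval 0.11 to 0.96; limma adjusted p = 0.344; exact permutation p = 0.1), a ratio of means of 1.46. Under median-of-ratios scaling it was 0.39 and the groups overlapped.

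Dcn (chromosome 10, 97479609 to 97518143, plus strand) stood at 8.26, 13.4 and 8.66 TPM in WT and 7.32, 13.0 and 8.23 TPM in KO. In each group library 2 stood above the others, and the groups overlapped almost wholly. The log2 difference was -0.09 (95% interval -0.64 to 0.47; limma adjusted p = 0.896), and its sign turned without WT library 2 (0.12), without KO library 1 (0.06) or with library weights (0.069). The sum of the 12 satellite cell markers was also highest in library 2 of each group, at 693 TPM in WT and 677 TPM in KO. In the other libraries it was 539 to 588 TPM. Sdc4 alone held 266 and 222 TPM of those 2 highest sums. Single markers differed in order: Myod1 was lowest of the KO libraries in library 2 (64.25 TPM), and Heyl lowest of the WT libraries in library 2 (14.85 TPM). The sum of the FAP markers was lowest in WT library 2. Lum (chromosome 10, 97565128 to 97572703, plus strand) lies 46984 bp after Dcn. It held 0.27, 0.54 and 0.43 TPM in WT and 0.29, 0.37 and 1.01 TPM in KO, with 1 library at 1 TPM or more (log2 difference 0.11; exact two-sided permutation p = 0.8). The next proteoglycan genes along that stretch, Kera and Epyc, were at most 0.15 and 0.02 TPM, so Dcn was the abundant gene of the 4.

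By mean level over the 6 libraries, the order was Sparc, Bgn, Thbs2, Thbs1, Dcn, Fn1, Tnc, Thbs4, Postn and Lum. The ranges of neighbours in that order overlapped except between Dcn, never under 7.32 TPM, and Fn1, never above 6.36 TPM. Tnc and Thbs4 were in that order in 2 of 6 libraries. Among all genes tested, Sparc stood at the 95.8th percentile in WT and the 96.4th in KO, Bgn at the 90.5th and 92.5th, and Fn1 at the 45.3rd and 63.8th. The median log2 difference over all 10 genes was 0.54, against 0.12 over all genes tested. Over the tested markers of other cell types it was 0.60 for 7 FAP genes and 0.70 for 5 Schwann cell genes. It was 0.47 for 6 muscle fibre, 0.32 for 4 endothelial, 0.21 for 4 mural, 0.06 for 2 leukocyte genes and 0.15 for 1 tenocyte gene. Over all listed genes, those under the filter included, it was 0.16 for 12 FAP and 0.21 for 8 Schwann cell genes. The FAP marker Islr, at rank 21 by limma p, stood ahead of Tnc. Another FAP marker, Gsn, was lower in every KO library (log2 difference -0.21), and Pdgfra differed by -0.01. The part of such cells in the shift of the 10 genes was not tested. Under median-of-ratios scaling the median was 0.42 over the 10 genes and 0.0088 over all genes tested. No direction among the 10 turned under any scaling tried. The signs were 7 higher and 3 lower in KO, where 77.6% of all genes tested were higher.

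**Figure D4:**
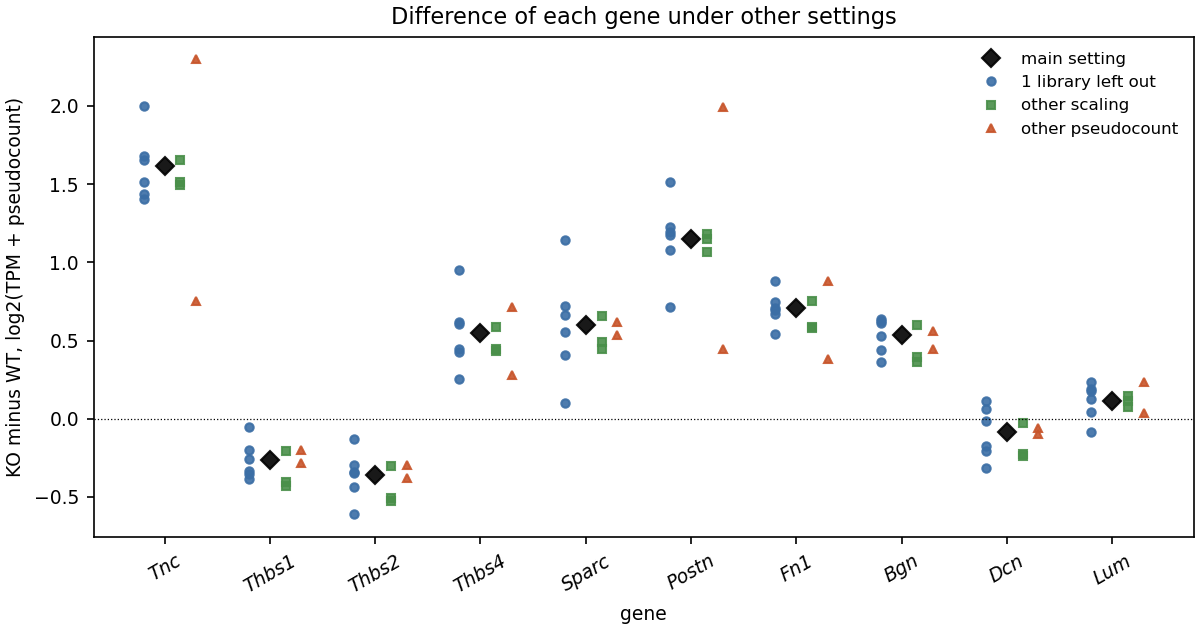
KO minus WT difference of each gene on the log2 scale as reported (black diamonds), with 1 library left out (blue circles), with other scaling (green squares) and with pseudocounts of 0.1 and 5 (orange triangles). Dcn and Lum cross 0 when 1 library is left out, the spread for Sparc runs from 0.10 to 1.14, and Tnc stays above 0 throughout.

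Of the marker lists, none had a gene at 0 in every library and none had a member past the adjusted threshold; an unadjusted limma p under 0.05 was found for 3 of 7 tested FAP markers, 3 of 5 Schwann cell markers and 1 of 12 satellite cell markers, all higher in KO, against 7.89% of all genes tested. Of the endothelial markers 4 of 7 were tested, of the mural 4 of 7, of the leukocyte 2 of 7 and of the muscle fibre genes 6 of 7. The summed leukocyte markers lay between 2.72 and 8.82 TPM in WT and between 4.33 and 7.49 TPM in KO. KO library 1 was the lowest of the KO libraries in the sums of these 4 lists. Their part in the results was not tested.

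Related genes were taken from lists by family or function. Of 23 other matricellular genes 11 were tested and none passed the adjusted threshold (limma). An unadjusted p under 0.05 was found for 2 of the 11, where 10.6% of all genes tested had one in either direction. Those were Tnxb, the gene of tenascin X, at 11.6 ± 0.104 TPM in WT and 16.7 ± 1.77 TPM in KO, and Ccn4, a Wnt-inducible matricellular gene, at 2.29 ± 0.476 and 3.60 ± 0.268 TPM (SD, n = 3 each). In both, all KO libraries were above WT, an order found in 13.5% of all genes tested. Next by p were Fbln2, a fibulin, at 5.11 ± 4.52 and 2.52 ± 0.703 TPM, with 10.3 TPM in WT library 3 alone, and Sparcl1, the nearest relative of Sparc, at 4.58 ± 1.14 and 6.78 ± 3.37 TPM.

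Among 15 other proteoglycan genes 8 were tested, 4 with a higher and 4 with a lower value in KO, and none passed the limma threshold. An unadjusted p under 0.05 was found for 3 of the 8, against 10.6% of all genes tested in either direction. Vcan, the large proteoglycan versican, was higher in every KO library, at 1.30 ± 0.181 TPM in WT and 2.14 ± 0.192 TPM in KO. Ogn, the small proteoglycan osteoglycin, was lower in every KO library, at 13.6 ± 4.10 and 8.24 ± 0.320 TPM. Over all genes tested, 13.5% had every KO library above WT and 3.07% every KO library below. Prelp, another small proteoglycan, was at 32.4 ± 13.2 and 16.6 ± 5.93 TPM, and Omd, osteomodulin, at 2.84 ± 0.547 and 2.21 ± 0.924 TPM (SD, n = 3 each). Prelp and Ogn, as Dcn, were highest in library 2 among the WT libraries.

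Receptors of these proteins gave 16 tested genes of 22, 12 of them with a higher value in KO, near the share of all genes tested, 77.6%, and in 7 every KO library was above WT, where 13.5% of all genes tested had that order. None passed by limma, and 4 of the 16 had an unadjusted p under 0.05, all higher, against 7.89% of all genes tested. Itgb1, the β subunit of the main fibronectin receptors, was at 36.6 ± 2.94 TPM in WT and 45.5 ± 2.91 TPM in KO. Cd47, the thrombospondin receptor, was at 4.51 ± 0.0833 and 5.91 ± 0.435 TPM. Cd44, a hyaluronan receptor, was at 22.1 ± 3.10 and 33.2 ± 9.55 TPM, and the syndecan Sdc3 at 1.36 ± 0.0872 and 2.09 ± 0.386 TPM (SD, n = 3 each). The fibronectin receptor subunit Itga5 was at 4.28 ± 0.221 and 4.38 ± 0.392 TPM, and Itga9, a subunit of a tenascin C receptor, at 0.18 ± 0.0557 and 0.28 ± 0.0889 TPM; these 2 were named after their values were seen.

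Genes of matrix assembly and crosslinking had a higher value in KO in 15 of 16 tested members of a list of 23, where 77.6% of all genes tested had one. With median-of-ratios scaling the share of all genes tested was 52.3%, and the list was not counted under that scaling. On the deposited scale the median log2 difference of the 16 was 0.23, against 0.12 over all genes tested. None passed by limma, and 3 of the 16 had an unadjusted p under 0.05, all higher, against 7.89% of all genes tested. Bmp1, a protease that processes procollagen and small proteoglycans, was at 4.05 ± 0.234 TPM in WT and 7.10 ± 1.06 TPM in KO (limma adjusted p = 0.153). Emilin1, an elastic fibre glycoprotein, was at 1.503 ± 0.150 and 2.92 ± 0.488 TPM, and the lysyl oxidase-like gene Loxl2 at 7.93 ± 0.0513 and 12.3 ± 2.20 TPM. P4ha3, a prolyl hydroxylase subunit, was at 0.983 ± 0.133 and 1.30 ± 0.136 TPM (SD, n = 3 each). In these 4, and in no other of the 16, every KO library was above WT, against 13.5% of all genes tested.

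Ligands, receptors and regulators of TGF-beta, which decorin, biglycan and thrombospondin 1 can bind or activate, were divided, with 14 of 16 tested, 7 higher and 7 lower in KO and a median log2 difference of -0.01. None passed by limma. An unadjusted limma p under 0.05 was found for 3 of the 14, 2 higher and 1 lower in KO, against 10.6% of all genes tested in either direction. Ltbp1, a latent TGF-beta binding protein, was at 14.9 ± 4.27 TPM in WT and 22.5 ± 4.57 TPM in KO, and Smad2 at 2.08 ± 0.158 and 2.70 ± 0.1002 TPM. Tgfb1, a ligand, was at 1.15 ± 0.259 and 1.54 ± 0.318 TPM (SD, n = 3 each).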

How the data were processed

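RNA-seq of sorted hindlimb satellite cells gave 6 libraries, 3 WT and 3 KO, grouped by the labelled genotype. The authors deposited TPM per gene symbol for 24980 symbols; the annotation, the strandedness, the depth and the way transcripts were summed are not given in the sources used here. Per the submitters' processing notes, kallisto, Trimmomatic 0.33, CASAVA and FastQC were used, with GRCm38 and mm10, in roles that are not stated. Per the labels, a Qiagen RNeasy kit served for extraction and standard Illumina steps for the libraries.

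From these values, log2(TPM + 1) was tested with limma 3.58.1 in R 4.3.3 (eBayes with trend, two-sided) over the 8971 genes that reached 1 TPM in at least 3 libraries, with Benjamini-Hochberg adjustment and a threshold of 0.05, and checked on simulated data. The pseudocount shrinks the fold of low genes. The numbers in sample titles differ between all libraries, so nothing pairs them; libraries are numbered by accession order. Symbols were matched to GENCODE vM21 (GRCm38) for 1-based coordinates. Alternatives were pseudocounts of 0.1 and 5, 3 other filters, 3 other scalings, 3 variance models, and leaving out each library.

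The 10 genes and the lists were chosen with earlier results of these data known. Named were the 10 genes, Esr1, up to 4 tested genes per related list by smallest p, and the 3 protein-coding genes most correlated with Tnc. Some genes that this rule names are not reported here. The marker genes and lists set beside single genes, and the motifs searched, were chosen after values were seen. Figures were drawn with matplotlib 3.10.9.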

Additional observations from a re-analysis of the deposited data

How the results depend on the processing

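Of the 10 genes, 0 were called higher by limma as reported and in 14 of 17 alternatives; 1, Tnc, was called after rescaling to the same protein-coding sum, with library weights, and without KO library 2, so leaving out a library gave 0 to 1. In none of the 17 alternatives was one called lower. The median log2 difference of the 10, 0.54, was 0.33 with a pseudocount of 5, 0.42 with median-of-ratios scaling, 0.40 after quantile normalization, in which Postn and Lum kept their deposited scale, 0.34 with library weights, and 0.39 to 0.59 when each library was left out. Dcn, -0.09, turned to 0.069 with library weights and lay between -0.31 and 0.12 when each library was left out, above 0 without WT library 2 or KO library 1. Lum, under the filter, was -0.08 without KO library 3. Tnc and Thbs4 were not tested, nor was Fn1, under the filter of 5 TPM. The cause of these shifts was not tested.

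Over all genes, 3 were called higher and 2 lower by limma. Higher calls numbered 0 with a pseudocount of 0.1, no filter or a mean TPM filter, 1 with the filter of 5 TPM, under median-of-ratios scaling or quantile normalization, 38 after rescaling to the same protein-coding sum, 17 with robust eBayes and 53 with library weights. Lower calls numbered 0 with a pseudocount of 5, no filter, a mean TPM filter or quantile normalization, and 49, 16 and 27 in the last 3 settings. Leaving out each library gave 0 to 4 higher and 0 to 2 lower. The share of genes with a higher value went from 77.6% to 52.3% with median-of-ratios scaling and to 49.4% after quantile normalization. Esr1, -0.86 as reported, passed at -0.81 after protein-coding rescaling, -0.86 with robust eBayes and -0.86 with library weights (limma adjusted p = 0.0387, 0.0240 and 0.0222). No paired analysis was possible because the titles carry no shared number. Without counts, what depth limits cannot be stated.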
